A study of Mus musculus with 24 samples.

Results

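Imprinted genes lie on the autosomes in clusters and are read mainly from 1 parental allele, and 60 of them, chosen by gene symbol, were followed through neural differentiation of mouse embryonic stem cells (mESCs) with and without SmcHD1. All 60 were among the 23119 genes listed in the expression table, they fell into 21 domains by position, and 46 of them passed the filter on low values (a mean of at least 1 FPKM over 24 libraries) that left 12105 genes to test. FPKM is the number of fragments per kilobase of transcript after scaling to the library's mapped fragments. The summed FPKM still ranged from 504660 to 802938 between libraries, so scaling to the same sum was tried as an alternative. Each value sums both alleles, so a level here does not say which allele was read.

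The cells were JB4/EI7HZ2, a female mESC line from a JF1 mother and a B6 father, and a SmcHD1-mutant line derived from it, which is called KO. KO cells carry frameshift deletions on both alleles in exon 3 of Smchd1, made by CRISPR-Cas9 with a guide RNA aimed at the ATPase domain, and each genotype is represented by 1 line, so genotype and line cannot be told apart. All 8 groups, WT included, share the drug-resistance insertions CAGzeo at Hprt on the JF1-X and IRESneo in Eif2s3x on the B6-X, which keep 2 X chromosomes under G418 and Zeocin. Poly(A) RNA was sequenced in 3 replicates each of mESCs (grown in serum with 2i/LIF), neurectoderm after 7 and 9 days of differentiation (day 7 and day 9) and neural stem cells (NSCs, kept in FGF2 and EGF). Day 7 and day 9 cells were aggregates made through epiblast-like cells in Activin A, FGF2 and serum replacement. NSCs were derived from mESCs by a separate protocol and not from day 9 cells, so stage and protocol cannot be told apart. G418 and Zeocin are given for the mESC and NSC media and not for those of day 7 and day 9. Replicates of the mESCs and their differentiation intermediates are described as biologically independent experiments, and whether each NSC replicate was a separate derivation is not given in the sources used here. P-values measure the spread between experiments on 1 line per genotype.

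At an imprinted domain, a differentially methylated region set in 1 parent's germ line survives the demethylation that follows fertilization, and it decides which allele of the genes around it is transcribed. In mice most of these control regions are methylated on the maternal copy and overlap the promoter of a paternally expressed gene or noncoding RNA, whereas the regions at H19 and upstream of Meg3 are methylated on the paternal copy. ZFP57 binds a short methylated motif and, together with TRIM28, holds methylation at these regions. SmcHD1 is a chromatin protein of the inactive X that is also known to silence several clustered imprinted genes, the Snrpn and Igf2r clusters among them, mostly in embryo and placenta.

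Promoters of 4 paternally expressed members with KO differences described later are shown because each is known to lie in or beside a maternally methylated control region. They are RefSeq windows on GRCm38.p6, from 250 bases before to 50 after the start of the transcript, written 5′ to 3′ in the direction of transcription, at chr10:13090582-13090881 (plus strand), chr2:157559828-157560127 (plus strand), chr7:60005150-60005449 (minus strand) and chr7:6730370-6730669 (minus strand). Capitals mark GCGGCA, the reverse complement of TGCCGC, the core that ZFP57 is known to bind when it is methylated, and both strands were searched.
Plagl1: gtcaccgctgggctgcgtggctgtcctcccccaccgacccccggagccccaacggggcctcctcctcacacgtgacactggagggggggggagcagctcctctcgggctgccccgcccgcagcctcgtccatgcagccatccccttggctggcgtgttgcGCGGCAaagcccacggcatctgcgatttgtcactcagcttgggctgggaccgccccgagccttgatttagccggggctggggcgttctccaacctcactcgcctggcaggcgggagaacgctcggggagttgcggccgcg
Nnat: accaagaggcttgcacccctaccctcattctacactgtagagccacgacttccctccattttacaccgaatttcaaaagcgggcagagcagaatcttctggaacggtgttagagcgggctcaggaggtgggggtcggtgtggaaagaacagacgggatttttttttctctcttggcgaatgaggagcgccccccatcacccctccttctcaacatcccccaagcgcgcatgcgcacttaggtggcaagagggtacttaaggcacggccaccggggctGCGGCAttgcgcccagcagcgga
Snrpn: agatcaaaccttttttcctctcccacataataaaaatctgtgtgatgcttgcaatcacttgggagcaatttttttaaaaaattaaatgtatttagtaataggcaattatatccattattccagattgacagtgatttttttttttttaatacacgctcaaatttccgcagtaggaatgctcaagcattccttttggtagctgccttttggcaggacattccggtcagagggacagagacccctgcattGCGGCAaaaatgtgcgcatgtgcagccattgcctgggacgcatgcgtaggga
Peg3: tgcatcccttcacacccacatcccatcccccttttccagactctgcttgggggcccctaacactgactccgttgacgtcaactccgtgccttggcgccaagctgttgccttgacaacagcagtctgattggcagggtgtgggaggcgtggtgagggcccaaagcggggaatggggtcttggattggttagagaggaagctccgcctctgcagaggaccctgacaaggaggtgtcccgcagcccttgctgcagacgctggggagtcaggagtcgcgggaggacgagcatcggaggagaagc

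The motif stood once each in the Plagl1, Nnat and Snrpn windows and was not in the 300 bases of Peg3. Snrpn has 4 promoter windows in RefSeq, and the printed one is the only one of them with the motif. These windows held 26 CpG in Plagl1, 17 in Nnat, 7 in Snrpn and 13 in Peg3. RefSeq promoters were matched for 46 of the 60 members, some with several starts, and the letters were found in 15 of their 70 windows (21.4%), against 3813 of 32851 windows of all genes (11.6%). By gene these shares were 14 of 46 (30.4%) and 3527 of 27025 (13.1%). Member windows had a median of 13.5 CpG, against 7 over all windows. A match is a description of the letters and not evidence of binding, and GC content was not matched between the sets.

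Smchd1, the targeted gene, was at 13 to 26.4 FPKM in the 12 WT libraries and at 1.82 to 4.40 in the 12 KO libraries, with no overlap. Relative depth, from the value of 1 read in 2913 low genes, ranged from 0.811 to 1.15 of the median library, and the number of reads is unknown. Markers followed the stages, with a summed FPKM of 8 pluripotency genes of 6903 to 10621 in mESCs and 6.54 to 13.1 in NSCs (Zfp42 at 0 there), and of 8 neural stem genes of 93.7 to 155.6 in mESCs and 4107 to 7087 in NSCs. WT NSC libraries were the least alike, with a lowest pairwise Pearson correlation of 0.955 against 0.971 or more in the other groups, and WT NSC replicate 1 stood apart in several members below. KO cells at day 7 and day 9 had lower sums of markers of other lineages. Sums over 12 endoderm genes were 79.1 to 317 in WT and 8.80 to 9.29 in KO at day 7, and 58.8 to 114.5 and 11.8 to 36.8 at day 9. Sums over 10 mesoderm genes were 74.6 to 182 in WT and 10.6 to 13.7 in KO at day 7, and 42.6 to 113 and 21.2 to 23.5 at day 9. Sums over 6 trophoblast genes were 191 to 339 and 60.3 to 107 at day 7, and 92.2 to 122 and 40.1 to 64.5 at day 9. At other stages 2 sums were higher in KO. Trophoblast sums in mESCs were 53.2 to 56.8 in KO against 37.8 to 45.5 in WT. Endoderm sums in NSCs were low, at 6.58 to 8.32 in KO against 2.56 to 3.36 in WT. At 0 in a group were Afp in WT day 7, Mesp1 in KO day 7 and day 9, and Afp and Apoa1 in KO day 9. The part of these cells in the results at day 7 and day 9 was not tested, and in bulk samples fewer cells of a type and less RNA per cell cannot be told apart.

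The 60 members together made up 0.172% to 0.191% of the summed FPKM in the 6 mESC libraries, 0.639% to 0.810% at day 7, 0.621% to 1.02% at day 9 and 0.553% to 0.855% in NSCs. Differentiated libraries thus held more imprinted transcript than every mESC library, and WT and KO libraries did not overlap at day 7 (0.751% to 0.810% in WT, 0.639% to 0.667% in KO), day 9 (0.855% to 1.02% in WT, 0.621% to 0.754% in KO) or in NSCs (0.614% to 0.855% in WT, 0.553% to 0.563% in KO). At day 7 and day 9 most of the sum came from Mest, Nnat, Gnas and H19.

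**Figure D1:**
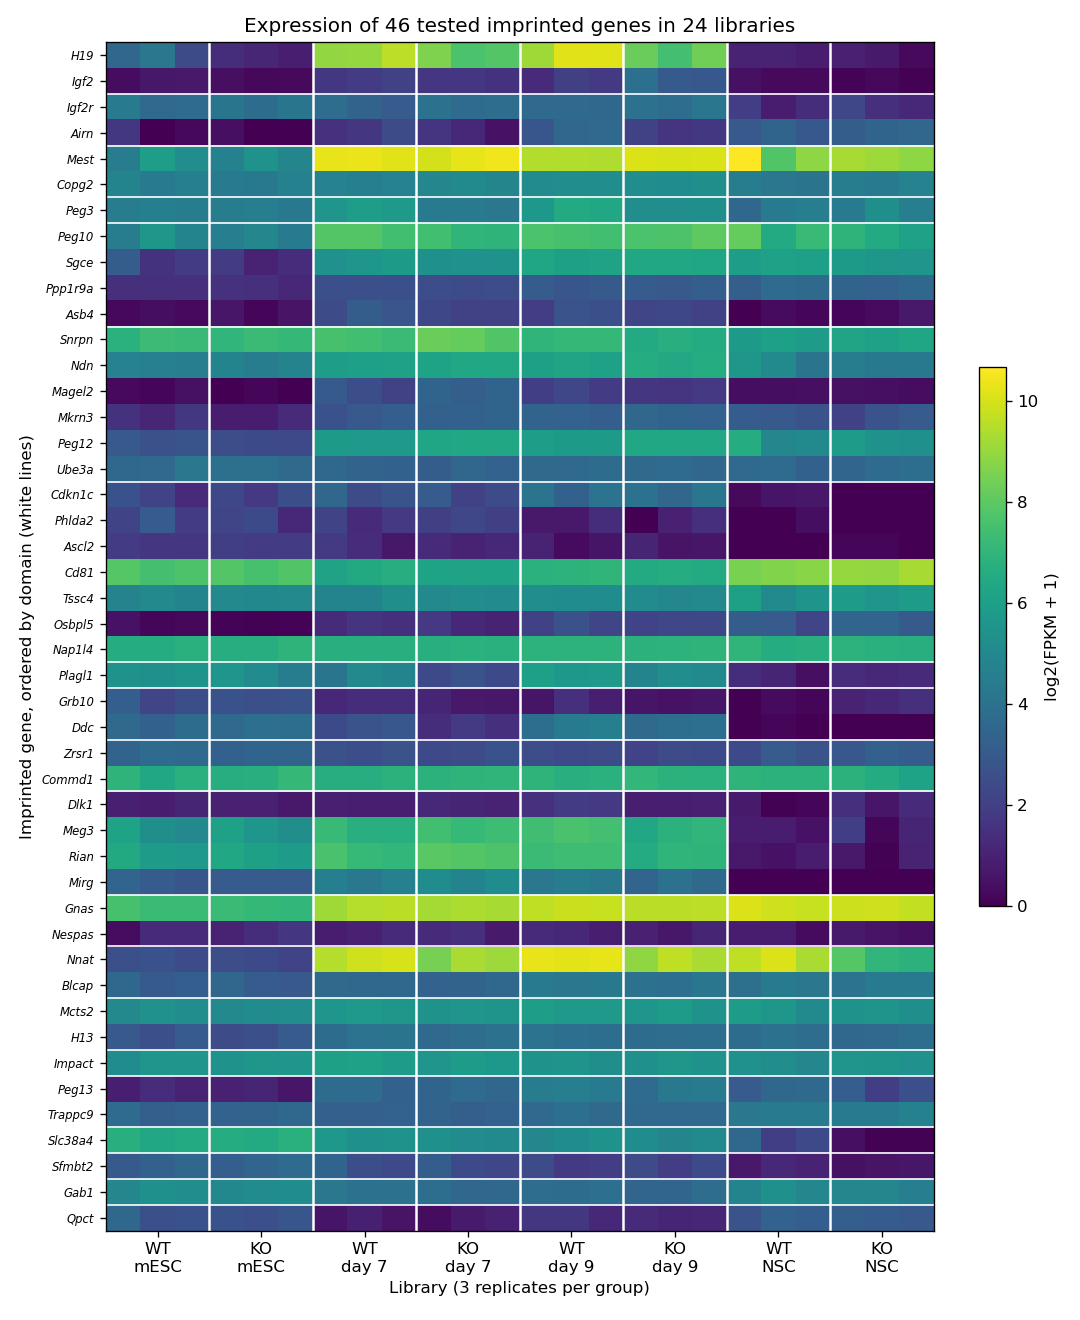
Heat map of log2(FPKM + 1) for the tested imprinted genes (rows, by domain) in the 24 libraries (columns, by stage and genotype, 3 replicates each). Nnat, Mest and H19 are bright (high) at day 7 and day 9, H19, Meg3 and Rian are dark (low) in NSCs, and the Slc38a4 row is darkest in KO NSCs.

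To see how imprinted genes moved during normal differentiation, each WT stage was compared with WT mESCs with limma on a log2(FPKM + 1) scale, where differences with a Benjamini-Hochberg adjusted p under 0.05 are the calls counted here. At day 7, 25 of the 46 tested members rose and 9 fell, where 29.1% of all tested genes rose and 30.2% fell. At day 9, 29 rose and 9 fell, against 36.4% and 35.1% of all tested genes. In NSCs 17 rose and 17 fell, against 36.9% and 38.3%. Median log2 differences over the members were 0.50, 0.88 and -0.15 at the 3 stages, and those over all tested genes were -0.02, 0.01 and -0.01. Scaling each library to the same FPKM sum brought the median of all genes to 0.18, 0.34 and 0.36, and the member counts became 28 up and 7 down, 33 and 9, and 21 and 16. The 3 comparisons share the WT mESC libraries. Of the 46 members, 13 were called higher at all 3 stages, 3 lower at all 3 and 2 at none, where 20.4% of all tested genes were higher at all 3, 21.5% lower at all 3 and 10.2% called at none.

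By textbook allele, 7 of 10 maternally expressed members rose at day 7 and none fell, and 15 of 21 paternally expressed members rose and 3 fell, where 29.1% of all tested genes rose and 30.2% fell. At day 9, 7 of the 10 maternally expressed members rose and 2 fell, and 14 of the 21 paternally expressed members rose and 3 fell, against 36.4% and 35.1%. In NSCs 1 of the 10 maternally expressed members rose and 8 fell, with a median log2 difference of -2.34, whereas 9 of the 21 paternally expressed members rose and 6 fell, with a median of 0.09, against 36.9% and 38.3% of all tested genes. The 2 lists were not tested against each other, and several maternally expressed members belong to the Dlk1-Dio3 and Kcnq1 domains and share their control region. Among the other 15 members, whose imprinting depends on tissue or is mixed, 3 rose and 6 fell at day 7, 8 rose and 4 fell at day 9, and 7 rose and 3 fell in NSCs.

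With the pseudocount of 1, the largest rises at each stage were in Nnat, H19, Mest and Sgce, with Peg12 in place of H19 in NSCs. This order depends on the pseudocount. With 0.1, Asb4 rose by 4.19 at day 7 and Airn by 4.49 at day 9, where Sgce had at most 3.92 and 4.46 in any setting. In NSCs Osbpl5 and Airn then rose by 4.28 and 4.26, where Peg12 had at most 3.15. In what follows, values are FPKM and are listed from replicate 1 to replicate 3.

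Mest (chr6:30683506-30846760, mm9, a locus it shares with Copg2) is a paternally expressed hydrolase gene known from mesoderm and growth. Mest in WT cells was at 21.2, 62.2 and 36.5 in mESCs, 1294, 1321 and 1163 on day 7, 693, 699 and 676 on day 9 and 1634, 218 and 462 in NSCs. Mest in KO cells was at 25.1, 43.8 and 27.7 in mESCs, 1006, 1228 and 1380.05 on day 7, 1107, 1036 and 1084 on day 9 and 624, 557 and 469 in NSCs. Every differentiated library lay above every mESC library, and WT NSC replicate 1 was several times above the other WT NSCs. The WT difference from mESCs was 5.07 ± 0.48 (SE), adjusted p = 6.75e-08, at day 7, 4.20 ± 0.48 (SE), adjusted p = 4.28e-07, at day 9 and 3.87 ± 0.48 (SE), adjusted p = 9.53e-07, in NSCs, where it was 3.09 without WT NSC replicate 1. KO and WT overlapped in mESCs, at day 7 and in NSCs, and at day 9 the KO libraries were all above WT with a difference of 0.64 ± 0.48 (SE), adjusted p = 0.589, which was called with the 2 groups fitted alone (adjusted p = 0.00146). Reads of Mest and Copg2 could have been counted for either where they overlap.

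Sgce (chr6:4624350-4697204) encodes epsilon-sarcoglycan and is expressed from the paternal allele next to Peg10, a gene derived from a retrotransposon. Sgce in WT cells measured 7.97, 1.92 and 2.58 in mESCs, 40.7, 48.5 and 56.2 on day 7, 76.1, 65.1 and 70.02 on day 9 and 60.3, 67.4 and 64.6 in NSCs. Sgce in KO cells measured 2.75, 1.1 and 1.58 in mESCs, 39.9, 40.9 and 43.1 on day 7, 82, 81.4 and 76.2 on day 9 and 55.3, 49.2 and 46.7 in NSCs. Sgce was low in all mESC libraries and high in all others. It rose in WT cells by 3.43 ± 0.26 (SE), adjusted p = 5.98e-10, at day 7, by 3.97 at day 9 and by 3.84 in NSCs. KO and WT mESCs overlapped, with a difference of -0.74 ± 0.26 (SE), adjusted p = 0.382, which became 0.0235 with the replicate number as a block. Peg10 itself ranged from 20.7 to 283 FPKM over the 24 libraries and was called lower in KO NSCs with the replicate block (adjusted p = 0.0492) and without WT replicate 2 (0.025). All 4 tested members of the Peg10 domain (Peg10, Sgce, Ppp1r9a and Asb4) rose at day 7 and day 9, where 29.1% and 36.4% of all tested genes rose, and 3 of them in NSCs (36.9% of all tested genes), where Asb4 had -0.16 (adjusted p = 0.489).

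Qpct (chr17:79451246-79489583), the enzyme that forms N-terminal pyroglutamate, and Gab1 (chr8:83288333-83404378), a docking protein of receptor tyrosine kinases, are known for imprinting in placenta and fell on leaving the mESC state. Qpct in WT cells had 11.3, 5.11 and 5.42 in mESCs, 0.509, 0.942 and 0.497 on day 7, 2.19, 2.34 and 1.35 on day 9 and 5.63, 9.13 and 8.21 in NSCs. Qpct in KO cells had 5.4, 5.01 and 6.29 in mESCs, 0.289, 0.724 and 0.964 on day 7, 1.46, 1.12 and 1.24 on day 9 and 8.5, 7.72 and 6.97 in NSCs. Qpct was lowest at day 7 in both genotypes and highest in mESCs and NSCs. Gab1 in WT cells read 30.1, 40.5 and 36.7 in mESCs, 17.8, 15 and 15.3 on day 7, 12.9, 12.8 and 14.1 on day 9 and 27.6, 39.8 and 29.996 in NSCs. Gab1 in KO cells read 30.9, 34.8 and 35.9 in mESCs, 13.7, 10.5 and 10.9 on day 7, 10.3, 10.03 and 12.9 on day 9 and 29.3, 29.3 and 22.6 in NSCs. Gab1 was lower at day 7 and day 9 than in mESCs and NSCs in every WT and KO library. The WT falls were -2.26 ± 0.23 (SE), adjusted p = 2.28e-08, for Qpct and -1.10 ± 0.14 (SE), adjusted p = 1.01e-06, for Gab1 at day 7, and -1.42 and -1.35 at day 9. Neither was called in NSCs against mESCs (adjusted p = 0.648 and 0.379) other than Qpct with the libraries scaled to 1 sum (adjusted p = 0.0478). In KO against WT neither was called at any stage without a replicate block. With the block Gab1 was called lower in KO at day 7 (-0.43, adjusted p = 0.0271), where every KO library lay below every WT library.

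H19 and Igf2 share enhancers on chromosome 7, where CTCF bound to the unmethylated maternal control region keeps the enhancers on H19, a noncoding RNA, and methylation of the paternal copy gives them to Igf2, a fetal growth factor. H19 (chr7:149761437-149764051) had KO libraries all below WT at 3 stages, of which mESCs and day 9 passed the test, and Igf2 (chr7:149836673-149856261) was higher in KO at day 9. H19 in WT cells was listed at 10.4, 17.6 and 4.48 in mESCs, 491, 509 and 786 on day 7, 562, 1166 and 1137 on day 9 and 1.02, 1.11 and 0.805 in NSCs. H19 in KO cells was listed at 1.61, 1.19 and 0.879 in mESCs, 388, 201 and 224 on day 7, 300.3, 178 and 330.2 on day 9 and 0.954, 0.698 and 0.223 in NSCs. H19 was low in mESCs, between 178 and 1166 FPKM at day 7 and day 9 and at 1.11 or below in NSCs, and the KO libraries were below every WT library in mESCs, at day 7 and at day 9 and overlapped in NSCs. In mESCs H19 averaged 1.23 ± 0.368 FPKM (SD, n = 3) in KO against 10.8 ± 6.55 in WT, a log2 difference of -2.25 ± 0.38 (SE), adjusted p = 0.00762. This mESC call was lost without KO replicate 3 (adjusted p = 0.0584) and with the 2 groups fitted alone (0.294). At day 9 the averages were 269.5 ± 80.6 FPKM (SD, n = 3) in KO against 955 ± 341 in WT, a difference of -1.80 ± 0.38 (SE), adjusted p = 0.00511, kept in each alternative tried. At day 7 the difference was -1.16 ± 0.38 (SE), adjusted p = 0.112, and in NSCs -0.31 ± 0.38 (SE), adjusted p = 0.774. The mesoderm and endoderm sums were lower in KO at day 7 and day 9 as well, and their part in the H19, Airn and Igf2 values was not tested.

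Igf2 in WT cells stood at 0.275, 0.589 and 0.669 in mESCs, 2.31, 2.61 and 3.13 on day 7, 1.47, 3.02 and 2.56 on day 9 and 0.381, 0.204 and 0.202 in NSCs. Igf2 in KO cells stood at 0.371, 0.176 and 0.202 in mESCs, 2.19, 2.26 and 1.96 on day 7, 13.7, 7.05 and 6.57 on day 9 and 0.0599, 0.161 and 0.0513 in NSCs. Igf2 in KO day 9 cells exceeded every other library, and in the other groups it was at 3.13 FPKM or below. The day 9 averages were 9.12 ± 4.01 FPKM (SD, n = 3) in KO against 2.35 ± 0.796 in WT, a 3.88-fold higher level, with a log2 difference of 1.55 ± 0.21 (SE), adjusted p = 3.08e-05, kept in each alternative tried. The day 9 KO effect differed from that in mESCs by 1.82 ± 0.29 (SE), adjusted p = 0.000699. Igf2 was the 1 member called in that interaction in the fit of all libraries, 1 higher and 0 lower of 46, against 1.32% and 1.35% of all tested genes. At day 9, H19 was thus lower and Igf2 higher in the same 3 KO libraries, and within the KO group replicate 1 had the highest Igf2 and replicate 3 the highest H19. The Igf2 locus overlaps Igf2as, and antisense reads were not shown to be counted apart.

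Igf2r and Airn (chr17:12875272-13061009, 1 bundle of reads) are an overlapping pair on chromosome 17, where the paternally transcribed noncoding RNA Airn silences the paternal copy of Igf2r, the receptor that clears IGF2. Igf2r in WT cells was at 20.9, 11.4 and 12.2 in mESCs, 13.1, 9.54 and 7.38 on day 7, 11.4, 11.5 and 11.2 on day 9 and 2.85, 0.798 and 1.6 in NSCs. Igf2r in KO cells was at 16.9, 12.6 and 16.8 in mESCs, 15.3, 12.1 and 13.3 on day 7, 14.6, 13.1 and 17.2 on day 9 and 3.79, 1.82 and 1.25 in NSCs. Igf2r was at 7.38 to 20.9 FPKM in every library up to day 9 and at 3.79 or below in NSCs. Airn in WT cells measured 2.34, 0 and 0.177 in mESCs, 1.85, 2.26 and 4.54 on day 7, 6.18, 10.4 and 11.5 on day 9 and 6.93, 9.8 and 6.7 in NSCs. Airn in KO cells measured 0.361, 0 and 0 in mESCs, 2.16, 1.25 and 0.426 on day 7, 3.27, 2.17 and 2.36 on day 9 and 7.84, 9.97 and 10.3 in NSCs. Airn was near 0 in most mESC libraries and highest at day 9 and in NSCs in WT cells. In WT NSCs, Igf2r fell by 2.55 (adjusted p = 2.36e-08) and Airn rose by 2.46 (adjusted p = 2.5e-06) against WT mESCs, the latter by 4.26 with a pseudocount of 0.1. At day 9 Airn averaged 2.6 ± 0.586 FPKM (SD, n = 3) in KO against 9.37 ± 2.81 in WT, a log2 difference of -1.50 ± 0.36 (SE), adjusted p = 0.0116, with no overlap. This call was lost without WT replicate 2 or 3 (adjusted p = 0.0635 to 0.0701) and with a pseudocount of 0.1 (0.281). In NSCs the genotypes overlapped, and Igf2r was not called in KO against WT at any stage, with 0.36 (adjusted p = 0.582) at day 9. Slc22a2 and Slc22a3, the placental members of this cluster, did not exceed 0.0922 and 0.177 FPKM in any library.

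**Figure D2:**
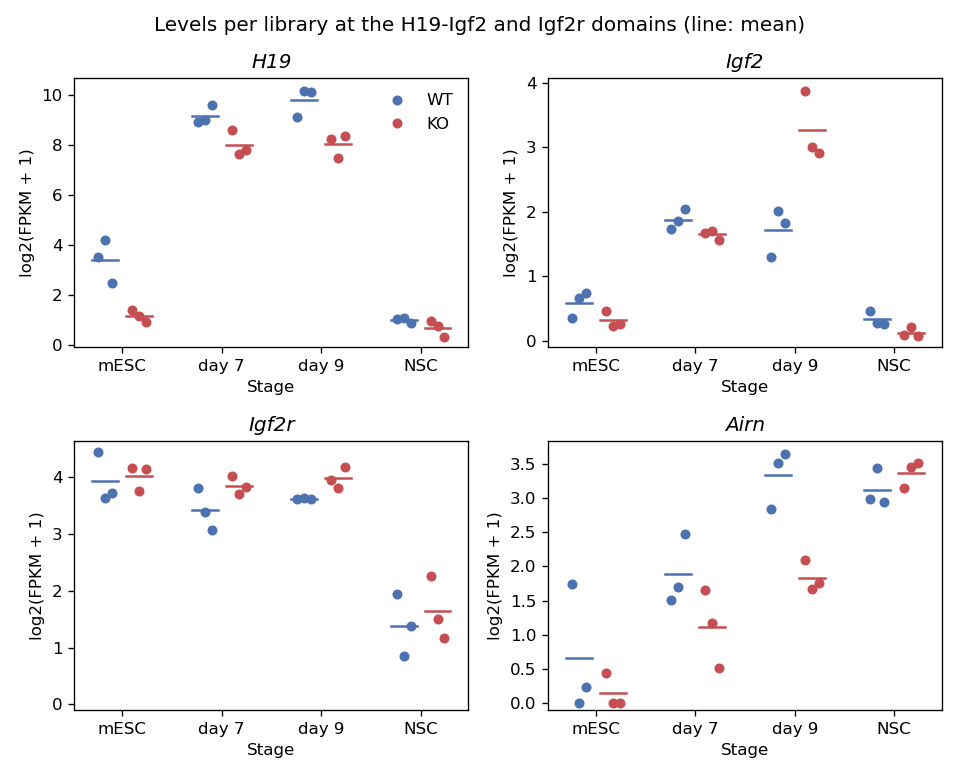
Levels of H19, Igf2, Igf2r and Airn as log2(FPKM + 1), by stage, with 1 point per library and a line at the mean of the 3 replicates, WT and KO side by side. H19 KO points lie below WT in mESCs, at day 7 and at day 9, and the 3 KO day 9 points of Igf2 (6.57 to 13.7 FPKM) lie above all others.

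The Dlk1-Dio3 domain of chromosome 12 holds the paternally expressed Notch-related ligand Dlk1 (chr12:110691033-110701546) and, read from the maternal copy, a long run of noncoding RNAs, Meg3 (chr12:110779206-110809939), Rian (chr12:110842155-110899921) and Mirg (chr12:110973191-110987667), whose expression is known as a mark of fully potent stem cells. These RNAs were present in mESCs, more abundant at day 7 and day 9, and close to absent in NSCs of both genotypes. Meg3 in WT cells had 72.3, 38.6 and 31.6 in mESCs, 145, 105 and 104 on day 7, 170.2, 192 and 176 on day 9 and 0.785, 0.761 and 0.421 in NSCs. Meg3 in KO cells had 67.6, 46.7 and 38.1 in mESCs, 175, 140.4 and 161 on day 7, 83.9, 114 and 128 on day 9 and 2.9, 0.143 and 1.18 in NSCs. Meg3 was below 3 FPKM in all 6 NSC libraries and above 31 in all others. Rian in WT cells read 87.5, 56.5 and 53.9 in mESCs, 195, 143 and 135 on day 7, 152, 165 and 164 on day 9 and 0.675, 0.423 and 0.732 in NSCs. Rian in KO cells read 84.7, 65.5 and 57.3 in mESCs, 244, 222 and 204 on day 7, 92.6, 124 and 121 on day 9 and 0.681, 0.0554 and 1.11 in NSCs. Rian was at 1.11 FPKM or below in NSCs and at 53.9 or above in all other libraries. Mirg in WT cells was listed at 10.2, 7.66 and 6.19 in mESCs, 23.2, 18.5 and 23.8 on day 7, 17.6, 21.9 and 19 on day 9 and 0, 0 and 0 in NSCs. Mirg in KO cells was listed at 7.49, 7.31 and 7.3 in mESCs, 36, 27.1 and 35.7 on day 7, 10.3, 14.7 and 12 on day 9 and 0, 0 and 0 in NSCs. Mirg was at 0 in all 6 NSC libraries, and its KO libraries were all above WT at day 7 and all below WT at day 9. In WT cells at day 7 the rises were 1.37 ± 0.33 (SE), adjusted p = 0.00154, for Meg3, 1.26 for Rian and 1.36 for Mirg. In WT NSCs the differences from mESCs were -4.79 ± 0.33 (SE), adjusted p = 7.71e-11, for Meg3 and -5.35 ± 0.21 (SE), adjusted p = 1.76e-15, for Rian.

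Between genotypes, Mirg was 32.9 ± 5.05 FPKM (SD, n = 3) in KO against 21.8 ± 2.91 in WT at day 7, a log2 difference of 0.57 ± 0.15 (SE), adjusted p = 0.0358. That call was lost without WT replicate 2 or 3 or KO replicate 1 or 3 (adjusted p = 0.0587 to 0.234), with a pseudocount of 0.1 (0.0916), with the libraries scaled to 1 sum (0.0809) and with the 2 groups fitted alone (0.0565). At day 9 Mirg was 12.4 ± 2.23 FPKM (SD, n = 3) in KO against 19.5 ± 2.17 in WT, a difference of -0.63 ± 0.15 (SE), adjusted p = 0.0123. The day 9 call was lost without WT replicate 2 or KO replicate 1 (adjusted p = 0.091 to 0.103). Meg3 and Rian were not called at either stage, with 0.44 and 0.52 at day 7 and -0.74 and -0.52 at day 9. Rian KO libraries were all above WT at day 7, and KO libraries of both were all below WT at day 9. At day 9 Meg3 was called with the 2 groups fitted alone (adjusted p = 0.0165), and so was Rian (0.0183). Dlk1 in WT cells stood at 0.938, 0.771 and 1.18 in mESCs, 0.89, 0.883 and 0.879 on day 7, 1.87, 2.65 and 2.42 on day 9 and 0.715, 0.0463 and 0.128 in NSCs. Dlk1 in KO cells stood at 0.992, 0.946 and 0.65 in mESCs, 1.25, 1.17 and 1.05 on day 7, 0.85, 0.876 and 0.939 on day 9 and 1.74, 0.568 and 1.47 in NSCs. Dlk1 stayed below 2.7 FPKM throughout, was highest in WT day 9 cells, where KO cells stayed within the mESC range, and varied widely among NSC libraries. The day 9 difference was -0.80 ± 0.19 (SE), adjusted p = 0.011, with no overlap. Dlk1 passed the filter, at a mean of 1.08 FPKM, only through its WT day 9 libraries (mean 2.31). The filter and this call are therefore not independent, although the call was kept with no filter on low values. Dlk1 at day 9 lost its call without WT replicate 2 or 3 (adjusted p = 0.0505 to 0.0705) and with a pseudocount of 0.1 (0.125). In NSCs the difference was 0.80 ± 0.19 (SE), adjusted p = 0.0143, although WT replicate 1 lay above KO replicate 2, and 2.05 with the pseudocount at 0.1. In NSCs the call was lost without WT replicate 2 or 3 or KO replicate 1 or 3 (adjusted p = 0.0645 to 0.0821) and with the 2 groups fitted alone (0.315). Rtl1 and Dio3, the other paternally expressed members, were below the filter, with at most 0.557 and 0.895 FPKM. The Meg3 and Mirg entries also hold microRNA symbols (Mir770 among them) and the Rian locus overlaps small RNA genes.

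**Figure D3:**
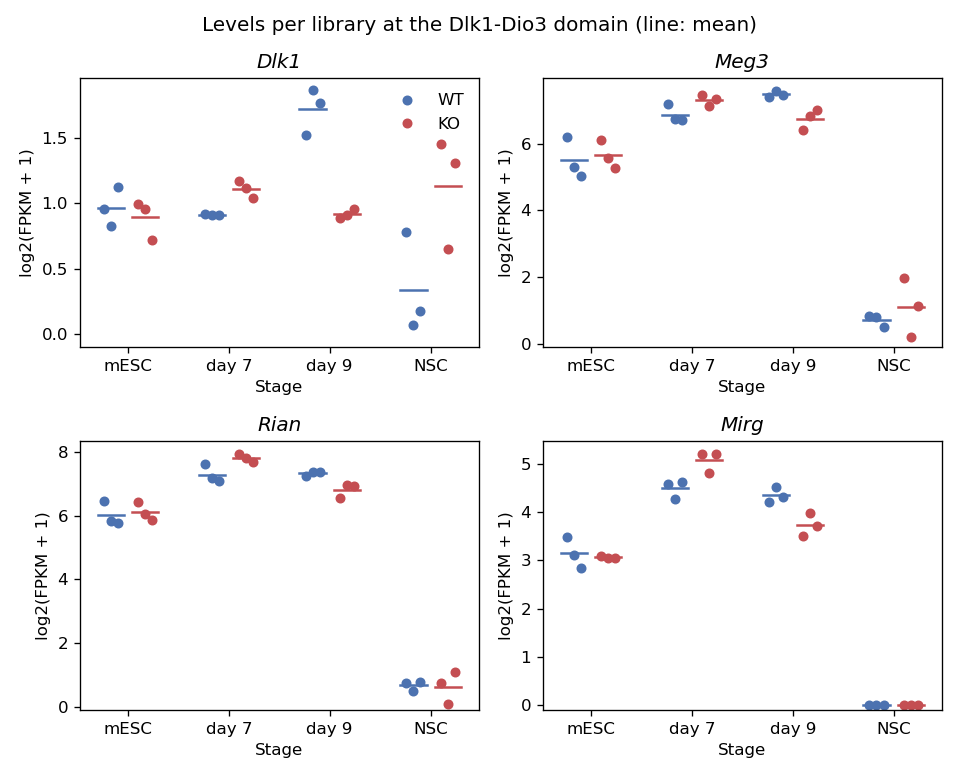
Levels of Dlk1, Meg3, Rian and Mirg as log2(FPKM + 1), by stage, with 1 point per library and a line at the mean of 3 replicates, WT and KO side by side. The noncoding RNAs drop to below 3 FPKM in all NSC libraries, and Dlk1 is highest in the WT day 9 libraries (1.87 to 2.65 FPKM).

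To ask how many imprinted genes differed without SmcHD1, KO was compared with WT at each stage in the same fit. In mESCs 0 members were higher and 1, H19, was lower, where 0.116% of all tested genes were higher and 0.413% lower. At day 7, 3 were higher (Snrpn, Magel2 and Mirg) and 3 lower (Peg3, Plagl1 and Ddc), against 1.18% and 2.5%. At day 9, 1 was higher (Igf2) and 7 were lower (H19, Airn, Peg3, Snrpn, Dlk1, Mirg and Nnat), against 2.58% and 4.11%. Of these, Dlk1 passed the filter only through its WT day 9 libraries. In NSCs 3 were higher (Cd81, Grb10 and Dlk1) and 3 lower (Nnat, Peg13 and Slc38a4), against 2.54% and 3.48%. As shares of the 46 tested members these are 2.17% lower in mESCs, 6.52% higher and 6.52% lower on day 7, 2.17% and 15.2% respectively on day 9, and 6.52% each way among NSCs. Median log2 differences over the members were -0.07, -0.12, -0.17 and 0.00, and those over all tested genes were 0.00, 0.00, 0.00 and 0.01. The number at an unadjusted p under 0.05 was 3 for mESCs, 17 on day 7, 13 on day 9 and 14 for NSCs, against 7.66%, 13.9%, 17.3% and 18.1% of all tested genes. Of the 46 members, 31 were called at no stage, 9 at 1 stage and 6 at 2 stages, against 86%, 11.4% and 2.13% of all tested genes. The libraries of the 2 genotypes did not overlap for any of these calls other than Dlk1 and Peg13 in NSCs, and the exact two-sided permutation test of 3 against 3 libraries gave its smallest possible p of 0.1 for each call without overlap.

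**Figure D4:**
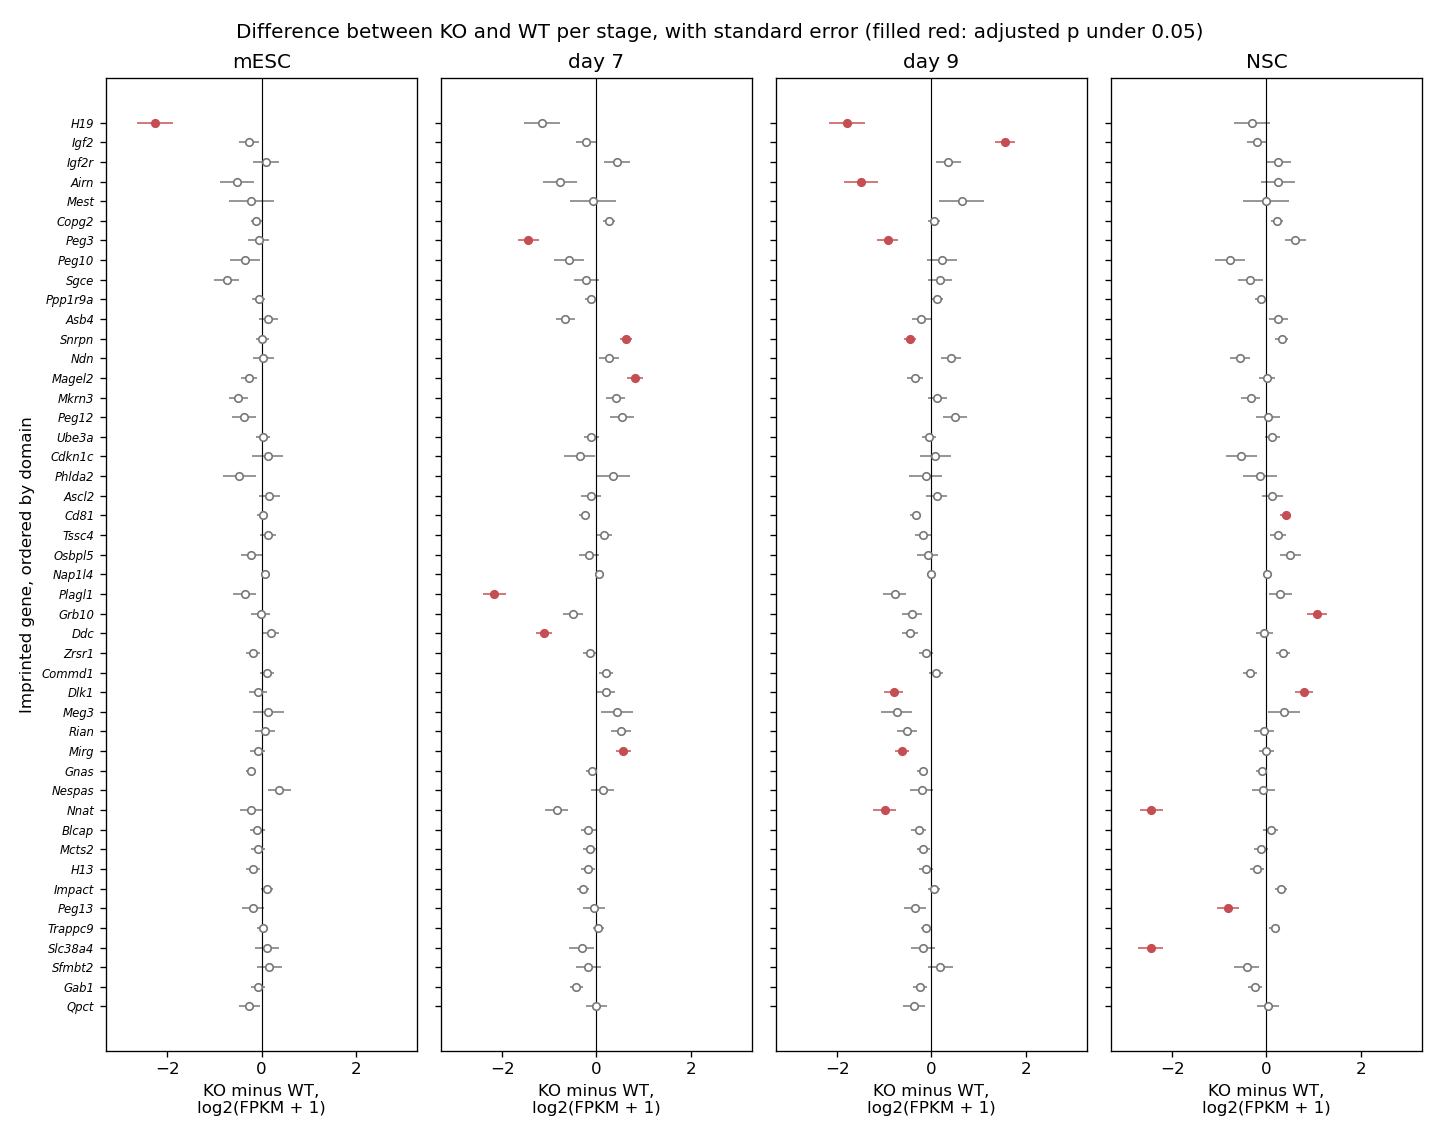
Log2 difference KO minus WT (log2(FPKM + 1) scale) with its SE for the 46 tested members, by domain, with 1 panel per stage and points filled red where the adjusted p is under 0.05. Plagl1 at day 7 (-2.17), Nnat (-2.44) and Slc38a4 (-2.46) in NSCs and H19 in mESCs (-2.25) are the furthest below 0, and Igf2 at day 9 (1.55) the furthest above.

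Plagl1, Ddc and Peg3 were lower in KO day 7 cells in every alternative tried. Plagl1 (chr10:12810594-12851501), a zinc-finger gene that regulates other imprinted genes, has the printed promoter window with the most CpG of the 4. Plagl1 in WT cells was at 43.6, 40.3 and 44.7 in mESCs, 16.7, 31.6 and 27.3 on day 7, 63.3, 51.1 and 54 on day 9 and 1.61, 1.16 and 0.349 in NSCs. Plagl1 in KO cells was at 48, 34.3 and 22.3 in mESCs, 4.19, 5.71 and 4.14 on day 7, 26.8, 36.7 and 33.9 on day 9 and 1.53, 1.33 and 1.38 in NSCs. Plagl1 was above 22 FPKM in mESCs, below 2 in NSCs and dipped at day 7, where KO libraries were far below WT. The endoderm sums at day 7 (8.80 to 9.29 in KO, 79.1 to 317 in WT) were lower in the same libraries, and their part in the Plagl1, Ddc and Peg3 values was not tested. The day 7 averages were 4.68 ± 0.892 FPKM (SD, n = 3) in KO against 25.2 ± 7.67 in WT, 5.38-fold lower, with a log2 difference of -2.17 ± 0.25 (SE), adjusted p = 8.59e-06. At day 9 the KO libraries were again all below WT, with -0.78 ± 0.25 (SE), adjusted p = 0.0627, and were called lower with the libraries scaled to 1 sum (adjusted p = 0.0303) and with the 2 groups fitted alone (0.00593). In WT cells alone the day 7 difference from mESCs was -0.79 ± 0.25 (SE), adjusted p = 0.00886, and in NSCs it was -4.48 ± 0.25 (SE), adjusted p = 3.94e-13. The WT day 7 call was lost without WT day 7 replicate 1 (adjusted p = 0.0785) and with the libraries scaled to 1 sum (0.064).

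Peg3 (chr7:6658671-6683130), a paternally expressed zinc-finger gene known for its part in growth and maternal behaviour, has the promoter printed without capitals. Peg3 in WT cells measured 21.3, 23.2 and 22.1 in mESCs, 46.2, 60.05 and 54.3 on day 7, 50.8, 90.2 and 80.2 on day 9 and 11, 19.3 and 22.4 in NSCs. Peg3 in KO cells measured 21.7, 23 and 19.1 in mESCs, 19.6, 19.3 and 17.7 on day 7, 36.6, 36.4 and 38.9 on day 9 and 20.5, 38.9 and 22.8 in NSCs. WT Peg3 was higher at day 7 and day 9 than in mESCs in every library, while KO day 7 libraries stayed at 17.7 to 19.6, near or below the lower end of the mESC range of 19.1 to 23.2. The day 7 averages were 18.9 ± 1.05 FPKM (SD, n = 3) in KO against 53.5 ± 6.93 in WT, with a difference of -1.45 ± 0.22 (SE), adjusted p = 0.000323. At day 9 they were 37.3 ± 1.42 FPKM (SD, n = 3) in KO against 73.8 ± 20.5 in WT, with -0.93 ± 0.22 (SE), adjusted p = 0.0123. At day 9 the call was lost without WT replicate 2 or 3 or KO replicate 1 (adjusted p = 0.0522 to 0.102). In NSCs the genotypes overlapped and the difference was 0.61, adjusted p = 0.124, and 0.0461 with the replicate block. Usp29 and Zim1, the neighbours of Peg3, were below the filter at up to 1.52 and 0.868 FPKM, and KO day 7 libraries of Usp29 (0.186 to 0.262) were below those of WT (0.345 to 0.513). At day 9 KO libraries of Usp29 (0.444 to 0.819) were again below WT (1.08 to 1.26), and it was called there with no filter on low values (adjusted p = 0.0477). The locus overlaps the antisense gene Peg3as.

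Ddc (chr11:11714104-11798147), which makes dopamine and serotonin from their amino acid precursors, and Grb10 (chr11:11830502-11937423), an adaptor that restrains insulin and growth signalling, are neighbours on chromosome 11 with tissue-dependent imprinting. Ddc in WT cells had 11.9, 8.99 and 12.8 in mESCs, 4.2, 5.55 and 6.46 on day 7, 13.4, 19.5 and 23.5 on day 9 and 0, 0.102 and 0 in NSCs. Ddc in KO cells had 11.5, 13.9 and 13.3 in mESCs, 1.61, 2.49 and 1.77 on day 7, 11.9, 13.5 and 14.1 on day 9 and 0, 0 and 0 in NSCs. Ddc was lower in KO than in WT in every day 7 library and about 0 in NSCs. Its locus overlaps 1 other entry, 1700042O10Rik. At day 9 Ddc was called lower in KO without WT day 9 replicate 1 (adjusted p = 0.0206). It averaged 1.96 ± 0.469 FPKM (SD, n = 3) in KO against 5.4 ± 1.14 in WT at day 7, a log2 difference of -1.11 ± 0.18 (SE), adjusted p = 0.000405. Grb10 in WT cells read 8.12, 3.73 and 4.99 in mESCs, 1.29, 1.64 and 1.62 on day 7, 0.528, 1.69 and 0.861 on day 9 and 0, 0.235 and 0.155 in NSCs. Grb10 in KO cells read 5.4, 5.14 and 5.32 in mESCs, 1.12, 0.681 and 0.591 on day 7, 0.511, 0.423 and 0.517 on day 9 and 1.06, 1.31 and 1.77 in NSCs. Grb10 fell from mESCs to NSCs in WT cells, and KO NSCs were all above WT NSCs. The NSC averages were 1.38 ± 0.361 FPKM (SD, n = 3) in KO against 0.13 ± 0.119 in WT, with 1.07 ± 0.21 (SE), adjusted p = 0.00279, kept in each alternative tried. WT NSC replicate 1 was at 0 and the others were at 0.235 or below, so the size of the difference depends on the pseudocount (2.83 with 0.1). In WT NSCs Grb10 was -2.50 and Ddc -3.55 relative to mESCs on the log2 scale, both called lower, and -4.73 and -6.47 with a pseudocount of 0.1.

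The Snrpn domain of chromosome 7 corresponds to the region of Prader-Willi and Angelman syndromes, and SmcHD1 is known to act on its paternally expressed genes in other tissues. Snrpn (chr7:67127387-67285105, listed with Snurf) encodes a spliceosome protein, Ndn (chr7:69493163-69494813), Magel2 (chr7:69521865-69526526) and Mkrn3 (chr7:69562479-69565025) encode a MAGE-family growth suppressor, a MAGE-family ubiquitin ligase cofactor and a RING-finger protein, and Peg12 (chr7:69606757-69609396) is a retrogene related to Frat1. At day 7 Snrpn and Magel2 were higher in KO, and at day 9 Snrpn was lower. Snrpn in WT cells was listed at 111, 161 and 149.8 in mESCs, 191, 175 and 155 on day 7, 126, 136 and 135 on day 9 and 54.6, 64.2 and 58.1 in NSCs. Snrpn in KO cells was listed at 129, 155 and 138 in mESCs, 307, 285 and 218 on day 7, 90.4, 104 and 95.1 on day 9 and 74.7, 69 and 78.3 in NSCs. KO Snrpn was above WT in all day 7 libraries, below WT in all day 9 libraries and above it again in NSCs. The neuron marker sum was also higher in KO at day 7 (155 to 183 against 114 to 153 in WT) and lower at day 9 (279 to 391 against 538 to 586), as were the levels of Snrpn and Mirg, and its part in them was not tested. At day 7 this sum lay within or below its mESC range of 146 to 218. Of 4 tested neuron genes, 0 were called in KO at day 7 and 2 were lower at day 9. The averages were 269.7 ± 46.4 FPKM (SD, n = 3) in KO against 174 ± 17.9 in WT at day 7, a log2 difference of 0.62 ± 0.13 (SE), adjusted p = 0.00638. The day 7 call was lost without WT replicate 3 or KO replicate 1 (adjusted p = 0.0567 to 0.0577). At day 9 they were 96.6 ± 7.11 FPKM (SD, n = 3) in KO against 132 ± 5.66 in WT, with -0.45 ± 0.13 (SE), adjusted p = 0.0418. For day 9 the call was lost without any 1 of the 6 libraries (adjusted p = 0.0533 to 0.183) and with a pseudocount of 0.1 (0.0553). In NSCs the difference was 0.32, adjusted p = 0.179, and 0.0344 with the replicate block. In WT cells Snrpn was 0.32 above mESCs at day 7 (adjusted p = 0.0431) and -1.22 in NSCs (adjusted p = 2.84e-08), and 0.56 and -0.78 with the libraries scaled to 1 sum. The WT day 7 difference lost its call without WT mESC replicate 1 or WT day 7 replicate 1 or 2 (adjusted p = 0.0921 to 0.299), with no filter on low values (0.0548), with the replicate block (0.0504) and with the 2 groups fitted alone (0.118).

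Magel2 in WT cells stood at 0.215, 0.138 and 0.381 in mESCs, 7.08, 4.95 and 3.21 on day 7, 2.92, 3.85 and 2.68 on day 9 and 0.298, 0.32 and 0.356 in NSCs. Magel2 in KO cells stood at 0, 0.0922 and 0 in mESCs, 9.92, 8.34 and 9.91 on day 7, 2.21, 2.13 and 2.4 on day 9 and 0.375, 0.336 and 0.281 in NSCs. Magel2 was near 0 in mESCs and NSCs and highest in KO day 7 cells. In mESCs it was called lower in KO with a pseudocount of 0.1 (adjusted p = 0.0392). At day 7 it averaged 9.39 ± 0.907 FPKM (SD, n = 3) in KO against 5.08 ± 1.93 in WT, with 0.82 ± 0.17 (SE), adjusted p = 0.0059. That difference lost its call without WT replicate 3 (adjusted p = 0.0587), with a pseudocount of 0.1 (0.138) and with the 2 groups fitted alone (0.0776). Ndn in WT cells was at 25.3, 24.3 and 23 in mESCs, 60.4, 65 and 68.6 on day 7, 66.7, 74.2 and 68 on day 9 and 48.9, 32.3 and 16.3 in NSCs. Ndn in KO cells was at 27, 21.8 and 26.2 in mESCs, 71.1, 79.9 and 83.6 on day 7, 98, 86 and 96.3 on day 9 and 21.5, 19 and 19.2 in NSCs. Ndn KO libraries were all above WT at day 7 and day 9, without passing the test (0.27, adjusted p = 0.676, and 0.42, adjusted p = 0.33). At day 9 Ndn was called with the 2 groups fitted alone (adjusted p = 0.00897). Mkrn3 in WT cells measured 1.96, 1.22 and 2.35 in mESCs, 5.46, 6.83 and 8.03 on day 7, 9.57, 9.2 and 8.15 on day 9 and 7.62, 6.85 and 5.72 in NSCs. Mkrn3 in KO cells measured 0.829, 0.789 and 1.41 in mESCs, 8.83, 9.04 and 9.73 on day 7, 10.6, 9.73 and 9.2 on day 9 and 3.12, 5.67 and 7.25 in NSCs. Mkrn3 overlapped between genotypes at every stage but day 7 (0.41, adjusted p = 0.385). Peg12 in WT cells had 6.93, 5.29 and 5.74 in mESCs, 54.9, 54.4 and 53.6 on day 7, 60.1, 55 and 55.5 on day 9 and 95.3, 29.96 and 33.1 in NSCs. Peg12 in KO cells had 4.79, 4.3 and 4.06 in mESCs, 76.4, 81.5 and 80.9 on day 7, 82.3, 80.3 and 81 on day 9 and 58.6, 43.5 and 39.9 in NSCs. Peg12 KO libraries were all above WT at day 7 and day 9 and all below it in mESCs, with 0.54, 0.51 and -0.37 on the log2 scale and adjusted p of 0.346, 0.319 and 0.831. Peg12 was called with the 2 groups fitted alone (adjusted p = 0.00502) at day 7 and with the 2 groups fitted alone (adjusted p = 0.00184) at day 9. WT NSC replicate 1 was highest of its group in Ndn, Mkrn3 and Peg12. Without it Peg12 was called higher in KO NSCs (adjusted p = 0.0046), and without WT NSC replicate 3 Ndn was called lower (adjusted p = 0.000137). Between WT stages Ndn, Magel2, Mkrn3 and Peg12 rose at day 7 and day 9, Peg12 by 2.99 ± 0.26 (SE), adjusted p = 2.73e-09, at day 7 and by 2.75 in NSCs (adjusted p = 3.74e-09). Ube3a, the maternally expressed ubiquitin ligase of neurons, ranged from 7.83 to 17.6 FPKM and was not called in KO against WT.

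Nnat, Slc38a4, Peg13 and Cd81 differed in NSCs. Nnat (chr2:157382098-157392097, a locus within Blcap) encodes neuronatin, a small membrane protein of differentiating neural cells, and rose more than any other member during differentiation. Nnat in WT cells read 5.14, 5.49 and 4.35 in mESCs, 725, 964 and 1033 on day 7, 1260.1, 1219 and 1233 on day 9 and 799.7, 1102 and 636 in NSCs. Nnat in KO cells read 4.72, 4.28 and 3.51 in mESCs, 362, 631 and 547 on day 7, 471, 802 and 638 on day 9 and 231, 129.97 and 115 in NSCs. Nnat was at 3.51 to 5.49 FPKM in every mESC library and above 100 in all others, and KO libraries were all below WT at day 7, at day 9 and in NSCs. WT rises over mESCs were 7.23 ± 0.25 (SE), adjusted p = 2.87e-15, at day 7, 7.70 at day 9 and 7.11 in NSCs. In NSCs Nnat averaged 159 ± 63.4 FPKM (SD, n = 3) in KO against 846 ± 236 in WT, 5.33-fold lower, a log2 difference of -2.44 ± 0.25 (SE), adjusted p = 2.35e-06, which was -2.46 without WT NSC replicate 1. At day 9 the averages were 637 ± 165 FPKM (SD, n = 3) in KO against 1237 ± 20.9 in WT, with -0.99 ± 0.25 (SE), adjusted p = 0.0156. Nnat at day 9 lost its call without WT replicate 2 or 3 or KO replicate 1 (adjusted p = 0.0553 to 0.121). The day 7 difference was -0.84 ± 0.25 (SE), adjusted p = 0.0638, and it was called with the libraries scaled to 1 sum (adjusted p = 0.0432) and without WT replicate 1 or KO replicate 2 (0.04 and 0.0459). Sums over 5 neuron markers (Dcx, on the X, at 0 throughout) were 114 to 153 FPKM in WT and 155 to 183 in KO at day 7, 538 to 586 and 279 to 391 at day 9, and 9 to 28.3 and 12.4 to 14.9 in NSCs. Neural stem marker sums were 333 to 393 in WT and 256 to 357 in KO at day 7, 1356 to 1667 and 1636 to 1864 at day 9, and 5564 to 7087 and 4107 to 4968 in NSCs. The neuron sum was thus higher in KO at day 7, where Nnat was lower, lower in KO at day 9 and overlapping in NSCs. At day 7 it lay within or below its mESC range of 146 to 218 in both genotypes. The part of these markers in the Nnat values was not tested. Blcap, whose intron holds Nnat, was not called at any stage in KO against WT (0.09 in NSCs).

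Slc38a4 (chr15:96825254-96886387), an amino acid transporter of placenta and liver with paternal expression, was lower at each later WT stage than in WT mESCs and near 0 in KO NSCs. Slc38a4 in WT cells was listed at 103, 80.5 and 90.8 in mESCs, 51.3, 39.6 and 42.7 on day 7, 30.1, 35.2 and 44.2 on day 9 and 11.2, 2.92 and 4.12 in NSCs. Slc38a4 in KO cells was listed at 96.5, 91 and 108 in mESCs, 39.6, 34.6 and 32.3 on day 7, 35, 27.9 and 32.5 on day 9 and 0.336, 0.0502 and 0.048 in NSCs. WT and KO overlapped in mESCs, at day 7 and at day 9, and in NSCs every WT library was above 2.9 and every KO library below 0.4 FPKM. The NSC difference was -2.46 ± 0.26 (SE), adjusted p = 3.53e-06, and -1.98 without WT NSC replicate 1, the highest library of its group. With a pseudocount of 0.1 it was -4.62. It lost its call with the 2 groups fitted alone (adjusted p = 0.0756). The WT differences from mESCs were -1.02 at day 7, -1.31 at day 9 and -3.88 ± 0.26 (SE), adjusted p = 1.64e-11, in NSCs.

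Peg13 (chr15:72420050-72891634), a paternally expressed noncoding RNA inside Trappc9 (the locus given is that of both), is known from brain. Peg13 in WT cells stood at 0.849, 1.54 and 1.08 in mESCs, 12.6, 12.4 and 9.08 on day 7, 21.9, 22.4 and 19.97 on day 9 and 7.39, 10.7 and 11.4 in NSCs. Peg13 in KO cells stood at 0.955, 1.18 and 0.573 in mESCs, 9.86, 12.3 and 10.4 on day 7, 12.3, 18.9 and 19.3 on day 9 and 8.14, 2.98 and 5.11 in NSCs. Peg13 rose in WT cells by 2.52 at day 7, 3.39 ± 0.23 (SE), adjusted p = 2.69e-11, at day 9 and 2.32 in NSCs. In NSCs KO averaged lower, 5.41 ± 2.59 FPKM (SD, n = 3) in KO against 9.84 ± 2.15 in WT, with -0.82 ± 0.23 (SE), adjusted p = 0.039, although KO replicate 1 lay above WT replicate 1. The difference was -0.52 without KO replicate 2. This NSC call was lost without WT replicate 2 or 3 or KO replicate 2 or 3 (adjusted p = 0.102 to 0.245), with a pseudocount of 0.1 (0.0677), with no filter on low values (0.0518), with the libraries scaled to 1 sum (0.0653), with the replicate block (0.056) and with the 2 groups fitted alone (0.385). Trappc9 was not called in KO against WT at any stage. Cd81 (chr7:150218526-150253835), a tetraspanin at the edge of the Kcnq1 domain, is imprinted in placenta. Cd81 in WT cells was at 233, 183 and 208 in mESCs, 70.6, 88.7 and 99.3 on day 7, 112, 117 and 124 on day 9 and 367, 397 and 443 in NSCs. Cd81 in KO cells was at 223, 189 and 221 in mESCs, 73.2, 69.5 and 72.4 on day 7, 91.9, 95.4 and 92.4 on day 9 and 503, 485 and 622 in NSCs. Cd81 fell in WT cells at day 7 (-1.27 ± 0.12 (SE), adjusted p = 7.72e-09) and rose in NSCs (0.95 ± 0.12 (SE), adjusted p = 2.63e-07), and KO NSCs were all above WT NSCs. The NSC averages were 537 ± 74.3 FPKM (SD, n = 3) in KO against 402 ± 38 in WT, with 0.41 ± 0.12 (SE), adjusted p = 0.0427. The Cd81 call was lost without WT replicate 1 or 2 or KO replicate 1 or 3 (adjusted p = 0.0553 to 0.253), with no filter on low values (0.0504) and with the 2 groups fitted alone (0.31). At day 9 KO libraries of Cd81 were all below WT (-0.33 ± 0.12 (SE), adjusted p = 0.111), a difference called with the libraries scaled to 1 sum (adjusted p = 0.0259) and with the 2 groups fitted alone (0.0109).

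**Figure D5:**
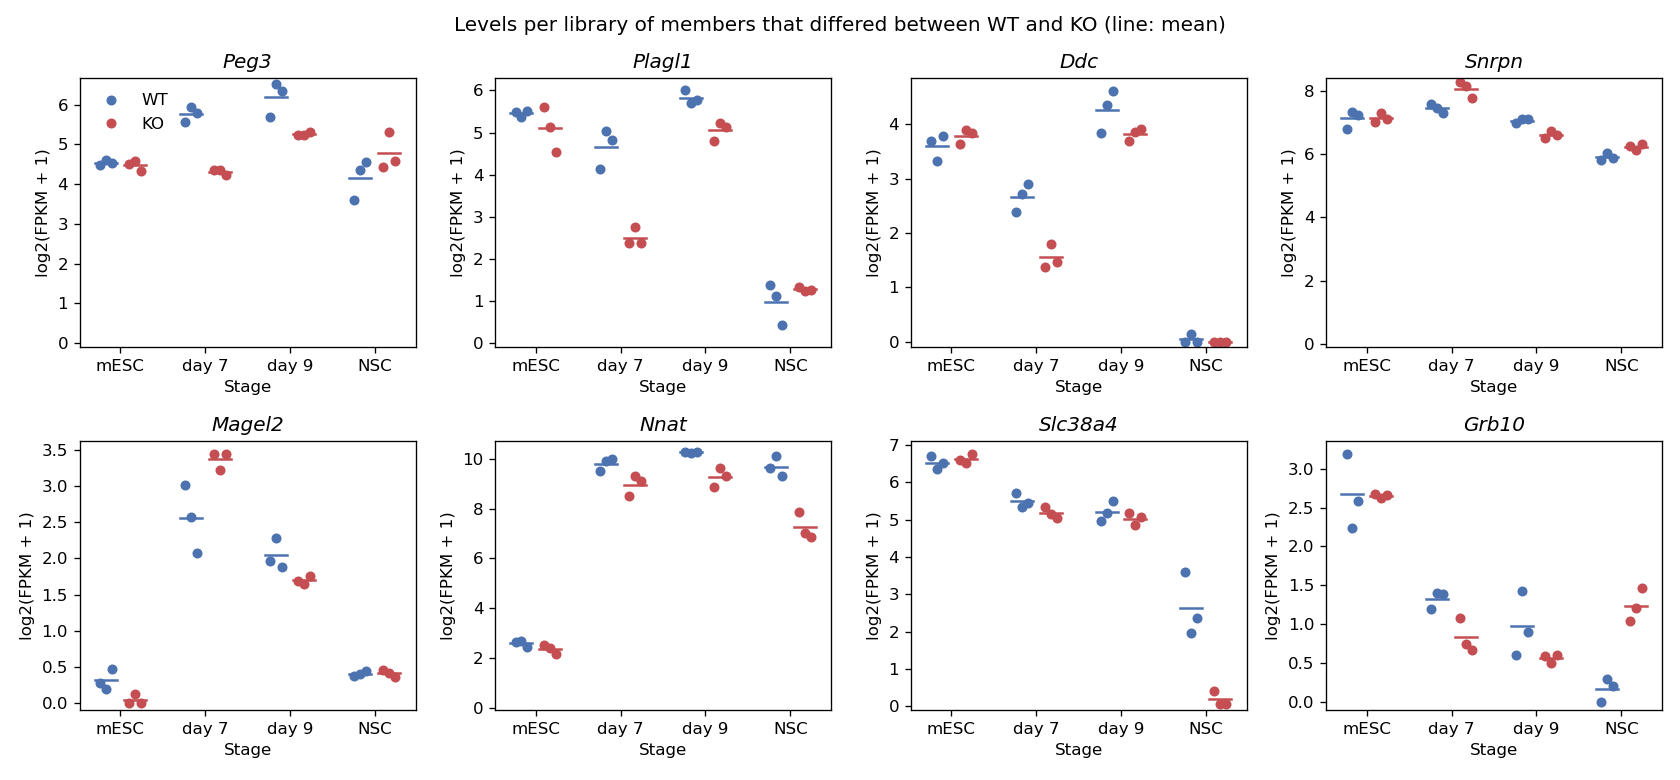
Levels as log2(FPKM + 1) of Peg3, Plagl1, Ddc, Snrpn, Magel2, Nnat, Slc38a4 and Grb10 by stage, with 1 point per library and a line at the mean of 3 replicates, WT and KO side by side. Among the widest separations are Plagl1 at day 7 (4.14 to 5.71 FPKM in KO, 16.7 to 31.6 in WT) and Slc38a4 in NSCs (0.048 to 0.336 in KO, 2.92 to 11.2 in WT).

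In the Kcnq1 domain the paternally transcribed Kcnq1ot1, which silences its neighbours in cis, was below the filter, and its maternally expressed targets Cdkn1c (chr7:150644244-150646955), a CDK inhibitor, and Phlda2 (chr7:150687453-150688429), a placental growth brake, were called between WT stages and, apart from Cdkn1c in NSCs under a smaller pseudocount, not between genotypes. Kcnq1ot1 in WT cells measured 0.101, 0.268 and 0.133 in mESCs, 0.265, 0.297 and 0.249 on day 7, 0.545, 0.392 and 0.459 on day 9 and 0.162, 0.367 and 0.197 in NSCs. Kcnq1ot1 in KO cells measured 0.195, 0.254 and 0.15 in mESCs, 0.167, 0.265 and 0.294 on day 7, 0.364, 0.392 and 0.614 on day 9 and 0.196, 0.286 and 0.305 in NSCs. Kcnq1ot1 was below 0.7 FPKM in every library, highest on average at day 9, and the genotypes overlapped at each stage. Cdkn1c in WT cells had 5.52, 3.61 and 1.46 in mESCs, 10.5, 4.41 and 5.91 on day 7, 16.5, 9.07 and 15.7 on day 9 and 0.223, 0.525 and 0.623 in NSCs. Cdkn1c in KO cells had 3.94, 2.39 and 4.85 in mESCs, 7.69, 3.25 and 4.51 on day 7, 15.3, 10.5 and 17.5 on day 9 and 0, 0 and 0 in NSCs. Cdkn1c was highest at day 9 and at 0 in all 3 KO NSC libraries. Phlda2 in WT cells read 3.59, 7.66 and 2.78 in mESCs, 3.61, 1.52 and 2.4 on day 7, 0.641, 0.656 and 1.67 on day 9 and 0, 0 and 0.33 in NSCs. Phlda2 in KO cells read 3.64, 4.23 and 1.32 in mESCs, 3.1, 3.89 and 3.1 on day 7, 0, 0.985 and 1.82 on day 9 and 0, 0 and 0 in NSCs. WT Phlda2 was highest in mESCs, and Phlda2 was at 0 in 5 of 6 NSC libraries. Cdkn1c rose in WT cells at day 7 (0.84 ± 0.33 (SE), adjusted p = 0.0337) and day 9 (1.77) and fell in NSCs (-1.54 ± 0.33 (SE), adjusted p = 0.000272, and -2.60 with a pseudocount of 0.1). Its day 7 call was lost without WT mESC replicate 3 or WT day 7 replicate 1 (adjusted p = 0.198 to 0.249), where the rise was 0.46 and 0.54, and with the 2 groups fitted alone (0.0945). Phlda2 fell at day 9 (-1.46 ± 0.35 (SE), adjusted p = 0.000905) and in NSCs (-2.27, and -4.74 with that pseudocount). In KO against WT NSCs Cdkn1c had -0.53 ± 0.33 (SE), adjusted p = 0.449, with no overlap, and was called lower with a pseudocount of 0.1 (adjusted p = 0.00131). The other comparisons of Cdkn1c and Phlda2 overlapped. Ascl2, a trophoblast transcription factor of the same cluster, fell from 2.72, 2.18 and 2.26 FPKM in WT mESCs to 0 in all 3 WT NSC libraries. Of the 7 tested members of the domain, 3 rose and 3 fell in NSCs against mESCs, where 36.9% of all tested genes rose and 38.3% fell, and Tssc4 and Osbpl5 rose with Cd81.

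The remaining tested members were not called between KO and WT in the fit of all 24 libraries. Impact was called higher in KO NSCs with the replicate block (adjusted p = 0.0372), and without WT NSC replicate 1 so were Impact (0.0413) and Tssc4 (0.0312). Without WT NSC replicate 2 Zrsr1 was called (adjusted p = 0.0428), and without WT day 7 replicate 1 Asb4 at day 7 (adjusted p = 0.0278). Gnas, the stimulatory G protein alpha subunit, was among the most abundant members, at 134 to 1091 FPKM over the 24 libraries, and rose in WT cells at each stage, by 2.55 ± 0.11 (SE), adjusted p = 7.93e-15, in NSCs. Its antisense RNA Nespas stayed at 2.19 or below and was called at no WT stage and in no KO comparison, except in WT NSCs against mESCs without WT mESC replicate 1 (adjusted p = 0.015). Impact, a regulator of translation, was 29.4 to 68.5 FPKM and rose at day 7 (0.55 ± 0.13 (SE), adjusted p = 0.000838). It was also called higher at day 9 with the libraries scaled to 1 sum (adjusted p = 0.0269), and lower in NSCs without WT mESC replicate 1 or WT NSC replicate 1 (adjusted p = 0.00939 and 0.0145). Sfmbt2, a Polycomb-related gene known from trophoblast, was 0.412 to 12.2 FPKM and fell at day 9 (-1.23) and in NSCs (-2.31), and at day 7 without WT day 7 replicate 1 (adjusted p = 0.00857). Zrsr1, a paternally expressed retrogene of a splicing factor, fell at all 3 stages (-0.94, -1.14 and -0.83), whereas its host gene Commd1, at 71.2 to 136 FPKM, was called at none of them unless the libraries were scaled to 1 sum, where it was higher at day 9 and in NSCs (adjusted p = 0.000935 and 6.61e-05), and with that scaling the fall of Zrsr1 in NSCs was -0.43. Mcts2, a retrogene inside H13, rose with H13 at all 3 stages, by 0.44 and 1.10 at day 7. Mcts2 at day 7 lost its call without WT mESC replicate 1 (adjusted p = 0.0668). Its NSC call was lost without WT mESC replicate 1 or 3 or WT NSC replicate 1 or 2 (adjusted p = 0.0809 to 0.284), with no filter on low values (0.0562) and with the 2 groups fitted alone (0.211). The NSC difference of Mcts2 was 0.33, and 0.77 with scaling to 1 sum. Reads of Zrsr1 and Mcts2 may also come from their parent genes. Other ranges in FPKM were 95.5 to 127 for Nap1l4, a histone chaperone, 16.4 to 38.4 for Copg2, a coat protein gene, 8.45 to 25.2 for Trappc9, 0.0572 to 10.2 for Osbpl5, 1.29 to 12.3 for Ppp1r9a, 0 to 7.82 for Asb4, 6.9 to 20.9 for Blcap, 4.65 to 16.3 for H13 and 26.6 to 65.3 for Tssc4. The 14 members below the filter had at most 1.83 FPKM in any library (Tspan32, in a WT mESC library), and Klf14, Calcr, Kcnq1, Slc22a18, Rasgrf1 and Kcnk9 stayed below 0.45.

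Whether a KO effect differed between stages was tested as the KO effect at each later stage minus that in mESCs. At day 7, 1 member had a higher effect (Magel2) and 3 a lower one (Plagl1, Ddc and Peg3), against 0.661% and 1.02% of all tested genes. In NSCs 0 were higher and 2 lower (Nnat and Slc38a4), against 1.14% and 1.12%. The differences were -1.81 ± 0.35 (SE), adjusted p = 0.00649, for Plagl1 and -1.30 ± 0.25 (SE), adjusted p = 0.00641, for Ddc, and -2.22 ± 0.35 (SE), adjusted p = 0.0017, for Nnat and -2.57 ± 0.36 (SE), adjusted p = 0.00067, for Slc38a4. All of these calls were kept in every alternative tried for interactions, among which the fit of 2 groups alone was not run. For Peg3 it was -1.39 ± 0.32 (SE), adjusted p = 0.0232, and for Magel2 1.09 ± 0.25 (SE), adjusted p = 0.0211. Peg3 lost this call without WT mESC replicate 1 or 3 or KO mESC replicate 1 or 2 or WT day 7 replicate 2 or 3 or KO day 7 replicate 3 (adjusted p = 0.0523 to 0.0795) and with the libraries scaled to 1 sum (0.0522), and Magel2 without WT mESC replicate 3 or KO mESC replicate 1 or 3 or WT day 7 replicate 2 or 3 or KO day 7 replicate 1 or 3 (adjusted p = 0.0525 to 0.0649) and with the libraries scaled to 1 sum (0.0768). H19, lower in KO at 2 stages, had interactions of 1.09, 0.46 and 1.94 with adjusted p of 0.535, 0.841 and 0.0668, and its call in mESCs and not in NSCs is therefore not shown to be a difference between them, although the NSC interaction was called without WT mESC replicate 3 (adjusted p = 0.0109). In NSCs Cdkn1c was called with a pseudocount of 0.1 (adjusted p = 0.0264), Grb10 with the libraries scaled to 1 sum (adjusted p = 0.0401) and with a pseudocount of 0.1 (0.00991) and Dlk1 with the replicate block (adjusted p = 0.0435). Leaving out 1 library added calls of Snrpn at day 7 (without WT mESC replicate 1 or KO day 7 replicate 3), Ddc at day 9 (without WT day 9 replicate 1) and, in NSCs, Grb10 (without WT mESC replicate 2), Dlk1 (without WT NSC replicate 1 or KO NSC replicate 2), Peg12 (without WT NSC replicate 1) and Ndn (without WT NSC replicate 3), with adjusted p of 0.00179 to 0.0492. With a pseudocount of 0.1 the differences of Slc38a4 and Magel2 were -4.73 and 2.35. These comparisons share the 6 mESC libraries.

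Of 12 genes that set or keep imprints, all were tested. In WT cells 0 rose and 4 fell at day 7, 1 rose and 8 fell at day 9, and 1 rose and 8 fell in NSCs, with a median log2 difference of -1.84 in NSCs. Of all tested genes, 29.1% rose and 30.2% fell on day 7, 36.4% rose and 35.1% fell on day 9, and 36.9% rose and 38.3% fell among NSCs, so the share that fell at day 7 is near that background and none of the 12 rose there. Zfp57 fell furthest by day 7, from 199 ± 44.7 FPKM (SD, n = 3) in WT mESCs to 34.3 ± 4.09 at day 7 and 9.33 ± 1.72 in NSCs. Dnmt3l, the cofactor of germline DNA methylation, and Dppa3, which shields the maternal pronucleus, were at 0 in the 3 WT NSC libraries, and Trim28 was 567 ± 243 in mESCs and 144 ± 47.8 in NSCs. Zfp445, a ZFP57-like guardian of imprints, was the 1 gene that rose, by 0.66 ± 0.12 (SE), adjusted p = 2.75e-05, in NSCs. Between genotypes, Dnmt3l was lower in KO mESCs (15.7 ± 5.42 against 47.8 ± 14 FPKM, -1.57 ± 0.23 (SE), adjusted p = 0.00149), a call kept without each library. Zfp57 was lower in KO NSCs (5.7 ± 1.45 against 9.33 ± 1.72 FPKM, -0.63 ± 0.17 (SE), adjusted p = 0.0253), and that call was lost without WT replicate 3, KO replicate 1 or KO replicate 2, with an adjusted p of up to 0.135. None of the 12 was called at day 7 or day 9 in KO against WT by limma. Whether imprint methylation differed was not measured here.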

How the data were processed

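The files hold FPKM per gene and library. The authors made stranded poly(A) libraries from 300 ng RNA, sequenced single-end reads on a HiSeq, trimmed them with Trim Galore 0.6.6, aligned them to mm9 with TopHat2 2.1.1, removed rRNA and X-chromosome reads, and deposited FPKM from Cuffdiff. Use of strand in counting is not given in the sources used here, so reads of overlapping or antisense genes cannot be told apart. Of 36 FPKM columns, 12 belong to none of the 24 samples and were not used.

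Groups were compared with limma 3.58.1 (R 4.3.3, statmod 1.5.0) on log2(FPKM + 1), a scale that understates changes of low genes. All 24 libraries entered as 8 groups without intercept, with eBayes trend and robust settings. Genes outside X and Y with a mean of at least 1 FPKM and no failed estimate were tested (12105), and adjustment ran over all of them. No replicate block was used. The labels give replicate numbers and no pairing. Deviations from group means of WT and KO libraries with the same number correlated more in mESCs (0.289, 0.435 and 0.141) and NSCs (0.335, 0.184 and 0.24) than at day 7 and day 9. Blocked values are given for mESCs and NSCs where a call changes. Members and lists were chosen with earlier results of these data known. Genes named with all values were members called in KO against WT, the 4 largest rises and 4 largest falls at each WT stage, and well-known members. Alternatives were a pseudocount of 0.1, no filter, scaling to 1 sum, the block, 2 groups alone (not for interactions) and each library left out. The fit was tested on simulated data. Coordinates are mm9, as loci in the files.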

Additional observations from a re-analysis of the deposited data

Results flagged for a closer look

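For 7 members the KO effect at a later stage differed from the KO effect in mESCs by a test of the difference itself (limma interaction, log2 scale). At day 7 this was -1.81 ± 0.35 (SE), adjusted p = 0.00649, for Plagl1, -1.30 ± 0.25 (SE), adjusted p = 0.00641, for Ddc, -1.39 ± 0.32 (SE), adjusted p = 0.0232, for Peg3 and 1.09 ± 0.25 (SE), adjusted p = 0.0211, for Magel2. Plagl1 and Ddc kept their calls in all alternatives run for interactions. Peg3 lost its call without WT mESC replicate 1 or 3 or KO mESC replicate 1 or 2 or WT day 7 replicate 2 or 3 or KO day 7 replicate 3 (adjusted p = 0.0523 to 0.0795) and with the libraries scaled to 1 sum (0.0522). Magel2 lost its call without WT mESC replicate 3 or KO mESC replicate 1 or 3 or WT day 7 replicate 2 or 3 or KO day 7 replicate 1 or 3 (adjusted p = 0.0525 to 0.0649) and with the libraries scaled to 1 sum (0.0768). At day 9 it was 1.82 ± 0.29 (SE), adjusted p = 0.000699, for Igf2. In NSCs it was -2.22 ± 0.35 (SE), adjusted p = 0.0017, for Nnat and -2.57 ± 0.36 (SE), adjusted p = 0.00067, for Slc38a4. In mESCs the same genes had KO differences of -0.35, 0.19, -0.06, -0.27, -0.27, -0.22 and 0.11 in that order, none of them called. The marker sums of other lineages that differed between KO and WT at day 7 stand in the report, and their part in these differences was not tested.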

How the results depend on the processing

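Counts of called members between WT stages stayed within 1.5 times under all alternatives, and counts between genotypes did not. In mESCs KO against WT had 1 call, 2 with a pseudocount of 0.1, 2 with the replicate block, 0 with the 2 groups fitted alone and 0 to 1 with 1 library left out (0 without KO replicate 3). At day 7, 6 calls became 3 to 8 with 1 library left out (3 without WT replicate 3), and 2 higher and 4 lower with libraries scaled to 1 sum. At day 9, 8 calls became 5 with the pseudocount of 0.1, 15 with the 2 groups alone and 2 to 8 with 1 library left out (2 without WT replicate 2, 3 without WT replicate 3, 4 without KO replicate 1). In NSCs 6 calls became 2 with the 2 groups alone and 3 to 8 with 1 library left out (3 without KO replicate 3). All-gene calls moved too, from 64 in mESCs to 92 (pseudocount), 98 (block) and 1 (2 groups), from 809 at day 9 to 542 (pseudocount) and 1377 (2 groups), and from 729 in NSCs to 1145 (block) and 58 (2 groups). With 1 library left out they ranged from 20 to 112 in mESCs, 273 to 521 at day 7 (446 with all libraries), 449 to 752 at day 9 and 406 to 1352 in NSCs. Interaction calls went from 4 to 2 at day 7 with scaling (0 higher, 2 lower), to 6 with the block (3 higher, 3 lower, adding Mirg and Snrpn with adjusted p = 0.0471 and 0.0203) and to 2 to 4 with 1 library left out, from 1 to 2 at day 9 with the block and to 1 to 2 with 1 library left out, and in NSCs from 2 to 4 with the pseudocount of 0.1, to 1 higher and 2 lower with scaling and to 2 to 4 with 1 library left out. The 2 groups alone leave 4 degrees of freedom per gene, and the other causes were not tested. Copg2 in WT NSCs against mESCs turned from -0.29 to 0.14 (adjusted p = 0.322) with scaling. Over single members, 1398 settings kept the call, 110 lost it and 1 turned.

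The block also changed calls in NSCs, where 6 calls became 9 (6 higher, 3 lower). Peg3, Peg10, Snrpn and Impact were gained (adjusted p = 0.0461, 0.0492, 0.0344 and 0.0372) and Peg13 was lost (0.056). At day 7 and day 9 the correlations between samples with the same number were lower, at 0.0957, 0.084 and 0.0376 and at 0.015, 0.0294 and -0.107. The block gave 9 and 11 calls there, adding Gab1, Nnat and Rian at day 7 and Cd81, Plagl1 and Rian at day 9. At day 7 all 6 libraries correlated best with their own number, as in mESCs and NSCs, and at day 9 2 of 6 did. Any pairing is thus a hint from the data and not from the design. Depth is known only in relative terms, so no floor or counting interval can be given for members near 0 FPKM.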
